A study of Mus musculus with 12 samples.

Results

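The contactins and the contactin-associated proteins were followed as 10 named genes of mouse cortex, chosen by gene symbol out of the 55357 genes counted. They comprised 6 contactins (Cntn1, Cntn2, Cntn3, Cntn4, Cntn5 and Cntn6) and 4 contactin-associated proteins (Cntnap1, Cntnap2, Cntnap4 and Cntnap5a). All 10 had counts in each of the 12 libraries, and all 10 passed the filter on low counts in every comparison.

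The RNA came from cerebral cortex, dissected with the hippocampal formation, and the mice were embryos of stage E17.5. Knockout embryos were Nestin-Cre; Egfr F/F, in which Cre recombinase under the Nestin promoter acts on both floxed alleles of the epidermal growth factor receptor gene in neural progenitors and their progeny. Control embryos were Egfr F/+, with 1 floxed allele; whether they carry Cre is not given in the sources used here. The tissue was cut into a rostral and a caudal piece, which gives 4 groups of 3 libraries each: knockout caudal and knockout rostral from embryos 5, 2 and 7, and control caudal and control rostral from embryos 1, 3 and 9.

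Contactins are adhesion proteins of the immunoglobulin superfamily that sit on the neuronal surface through a lipid anchor and have no cytoplasmic part. Contactin-associated proteins (the Caspr proteins) span the membrane, pair with contactins on the same axon, and tie them to scaffolds and potassium channels inside it. In developing cortex Cntn2, also called TAG-1, marks growing axons that leave the cortex; after myelination Cntn2 with Cntnap2, and Cntn1 with Cntnap1, organise the membrane on either side of the node of Ranvier.

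The proximal promoters of the genes that carry the results below are shown as reference sequence, because the levels of Cntn2, Cntn1 and Cntnap2 are set against that of Nr2f1, a DNA-binding area factor. The windows come from RefSeq on GRCm38.p6, run 5′ to 3′ on the gene's strand, and hold 250 bases before and 50 after a transcription start; 7 of the 10 genes had one. Capitals mark an E-box (CANNTG), the core bound by neuronal basic helix-loop-helix factors. They lie at chr1:132542891-132543190 on the minus strand for Cntn2, at chr6:45059811-45060110 on the plus strand for Cntnap2 and at chr15:92050915-92051214 on the plus strand for Cntn1, the first of 3 windows listed for that gene.
Cntn2: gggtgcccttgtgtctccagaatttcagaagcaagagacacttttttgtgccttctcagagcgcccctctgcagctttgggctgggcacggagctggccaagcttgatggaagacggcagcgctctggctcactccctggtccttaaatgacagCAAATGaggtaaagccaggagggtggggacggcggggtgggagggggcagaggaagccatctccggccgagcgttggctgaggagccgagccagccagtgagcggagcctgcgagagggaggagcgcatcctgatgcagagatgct
Cntnap2: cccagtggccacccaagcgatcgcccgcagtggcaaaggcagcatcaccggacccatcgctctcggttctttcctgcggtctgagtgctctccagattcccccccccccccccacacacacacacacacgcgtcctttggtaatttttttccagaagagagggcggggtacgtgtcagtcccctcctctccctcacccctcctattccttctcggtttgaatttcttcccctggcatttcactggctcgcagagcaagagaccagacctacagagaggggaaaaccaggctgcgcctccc
Cntn1: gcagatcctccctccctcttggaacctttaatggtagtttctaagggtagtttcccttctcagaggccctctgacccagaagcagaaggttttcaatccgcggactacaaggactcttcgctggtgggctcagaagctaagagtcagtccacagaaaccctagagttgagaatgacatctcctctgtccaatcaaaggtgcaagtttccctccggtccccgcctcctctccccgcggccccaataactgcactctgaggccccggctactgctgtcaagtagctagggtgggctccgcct
The Cntn2 window held 1 E-box, and the 2 other windows shown held 0. Of the windows not shown, the second of 2 for Cntnap2 and the second of 3 for Cntn1 held 1 each. The third for Cntn1 held 0. An E-box, searched on both strands, is present in 72.31% of all 32851 windows of this length. The half-site AGGTCA of NR2F factors, searched on both strands and not overlapping the E-box, is present in 16.26% of all windows and was found in 0 windows of the 7 genes. These are matches of letters in short windows and say nothing of binding.

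The libraries held between 25223733 and 30383672 counts, with 25682 to 27178 genes detected. The mitochondrial share of counts was 7.25% in knockout rostral library 7, 4.77% in knockout caudal library 5, and 1.96% to 3.53% elsewhere. Egfr stood at 5.76 ± 0.717 CPM (counts scaled to a library total of 1000000) in knockout and 30.8 ± 5.92 CPM in control embryos (SD, n = 3 each, both pieces summed), with an exact two-sided permutation p of 0.1, the smallest that 3 against 3 can give. Markers of cortical projection neurons summed to between 1480 and 2449 CPM, those of striatum to between 12.1 and 174 CPM, those of thalamus to between 9.45 and 29.3 CPM and those of choroid plexus to between 0.0195 and 53.2 CPM, with the thalamic marker Gbx2 at 0 in 3 libraries and the choroid marker Folr1 at 0 in 5. Some libraries went against their titles. Xist and Y-linked transcripts gave the same class in both libraries of 1 of 6 titled embryos, and 2 of 3 control rostral libraries held both kinds. Nr2f1, whose gradient in cortex is known to rise toward the caudal pole, was above its rostral partner in the caudal library of 4 of 6 titled embryos, with embryos 2 and 3 the other way round. Region and embryo are used here as titled, and the fold changes given for the 10 genes are also given without embryos 2 and 3.

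Cntn2 was by far the most abundant of the 10 genes. Per kilobase of exonic length it reached 161 ± 46.5 CPM per kb (SD, n = 12 libraries), 36.1-fold the level of the next gene, and it stood above that gene in 12 of 12 libraries. Cntn2 alone made up 93.2% of the counts of the 10 genes together. Below it came a middle tier of 3 genes. Cntnap2, the Caspr of juxtaparanodes, averaged 4.45 ± 1.08 CPM per kb. Cntn1, the contactin of paranodes, averaged 3.04 ± 1.13 CPM per kb, and Cntnap4, which in mice is known from interneuron synapses, averaged 2.96 ± 1.05 CPM per kb (SD, n = 12 each). Within this tier the order was not firm, since Cntnap2 exceeded Cntn1 in 9 and Cntn1 exceeded Cntnap4 in 6 of 12 libraries.

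The 6 other genes were low. Cntn5, first known as NB-2, averaged 0.747 ± 0.365 CPM per kb and lay below Cntnap4 in 12 of 12 libraries and above Cntn6 in 12 of 12. Cntn6 (0.435 ± 0.227 CPM per kb) and Cntnap5a (0.408 ± 0.121 CPM per kb) could not be ordered, as Cntn6 was the higher in 5 of 12 libraries. Cntn3 averaged 0.331 ± 0.192 and Cntn4, a ligand of amyloid precursor protein, 0.181 ± 0.0680 CPM per kb. Cntnap1, the Caspr of paranodes, was lowest at 0.0778 ± 0.0383 CPM per kb (SD, n = 12 each), between 0.191 and 0.964 CPM before division by length. Myelinated axons, where Cntnap1 is known to act, form in this tissue only after birth.

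**Figure D1:**
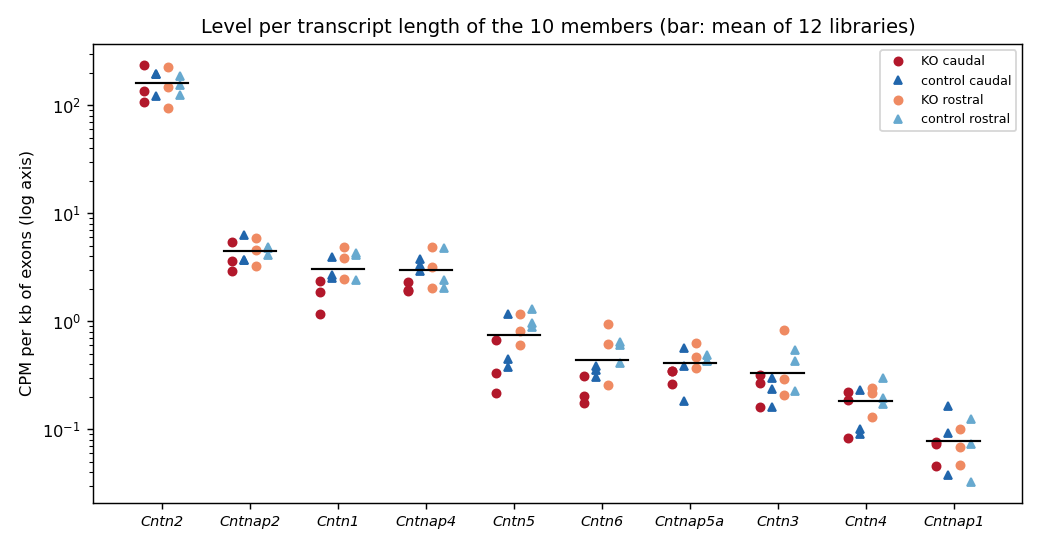
Level of each of the 10 genes in CPM per kilobase of exonic length (log axis); each point is 1 of 12 libraries (circles knockout, triangles control) and the bar is the mean. Cntn2 lies far above a middle tier of Cntnap2, Cntn1 and Cntnap4, and Cntnap1 lies lowest.

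The genes also differed in place and size. Cntn2 is compact, 33.83 kb on chromosome 1 (132437165 to 132470994, minus strand, GRCm39), as is Cntnap1 with 20.2 kb on chromosome 11. Cntnap2 spans 2245 kb on chromosome 6 (45036291 to 47281147, plus strand), and Cntn5 spans 1244 kb on chromosome 9 (9660896 to 10904780, minus strand). Cntn3, Cntn4 and Cntn6 lie within the same stretch of chromosome 6, between 102139616 and 106676271, together with the L1-family gene Chl1. Cntn1 lies on chromosome 15 (91949046 to 92239848, plus strand) and Cntnap4 on chromosome 8 (113296675 to 113609349, plus strand).

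Between its lowest and its highest library Cntn2 varied 2.51-fold in knockout and 1.61-fold in control libraries. In knockout caudal libraries 5, 2 and 7 it stood at 1267, 1005 and 2211 CPM, against 1809, 1135 and 1832 CPM in control caudal libraries 1, 3 and 9. In knockout rostral libraries 5, 2 and 7 it stood at 1383, 2090 and 880 CPM, against 1438, 1737 and 1161 CPM in control rostral libraries 1, 3 and 9. The genotypes overlapped in both regions, and the highest and the lowest library of all 12 were the knockout caudal and the knockout rostral library of the same titled embryo, number 7. When both pieces of a titled embryo were summed, Cntn2 lay between 1322 and 1571 CPM in the 3 knockout and between 1425 and 1622 CPM in the 3 control embryos. The SD was thus 131 CPM over 3 knockout sums, against 556 CPM over the 6 knockout libraries.

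High Cntn2 went with high Nr2f1. Nr2f1 stood at 248, 71.3 and 348 CPM in knockout caudal libraries 5, 2 and 7, against 343, 58.6 and 373 CPM in control caudal libraries 1, 3 and 9. In knockout rostral libraries 5, 2 and 7 it stood at 97.1, 340 and 205 CPM, against 78.9, 348 and 50.7 CPM in control rostral libraries 1, 3 and 9. The 5 libraries with the highest Cntn2 were the 5 with the highest Nr2f1, namely knockout caudal 7, knockout rostral 2, control caudal 1 and 9, and control rostral 3. Of all 17734 genes tested over the 12 libraries, 2.01% had their 5 highest values in those libraries. This pattern was noticed in the data and is given as a description. Of 3 thalamic markers, Lhx9 was also highest in these 5 libraries, at 14.3 to 23.0 CPM against 0.586 to 13.1 CPM in the other 7. Tcf7l2 stood at 6.33 to 12.2 CPM in the 5 and 7.07 to 11.2 CPM in the 7, and Gbx2 at no more than 0.0771 CPM in the 5 and 0.553 CPM in the 7. By summed markers, choroid plexus shared 4 and Cajal-Retzius cells shared 3 of their 5 highest libraries with Nr2f1. The part of these markers in the pattern was not tested.

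Of the other genes, Cntnap4 shared 4 and Cntnap1 shared 3 of its 5 highest libraries with Nr2f1, Cntn1, Cntn3, Cntn5 and Cntn6 shared 2 each, and Cntn4, Cntnap2 and Cntnap5a shared 1 each. For these counts no share over all genes was taken, and they are given as a description. Within titled embryos the difference between the caudal and the rostral library had the same sign as that of Nr2f1 in 5 of 6 embryos for Cntn2, Cntnap1 and Cntnap4, and 16.9% of all genes tested reached at least 5 of 6. The difference had the opposite sign for Cntn4 in 6 of 6, and the share of all genes that did so was not counted. In knockout embryo 7, for which Nr2f1 was higher in the caudal library by 0.76 on the log2 scale, Cntn2 was higher there by 1.33. In control embryo 9 the differences were 2.88 for Nr2f1 and 0.66 for Cntn2, and in knockout embryo 2 they were -2.25 and -1.06. In knockout embryo 5 the signs differed, with 1.35 for Nr2f1 and -0.13 for Cntn2. Cntnap2 ran the other way to Cntn2, with a Spearman correlation of -0.67 between the 2 genes over the 12 libraries, which share embryos and regions.

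**Figure D2:**
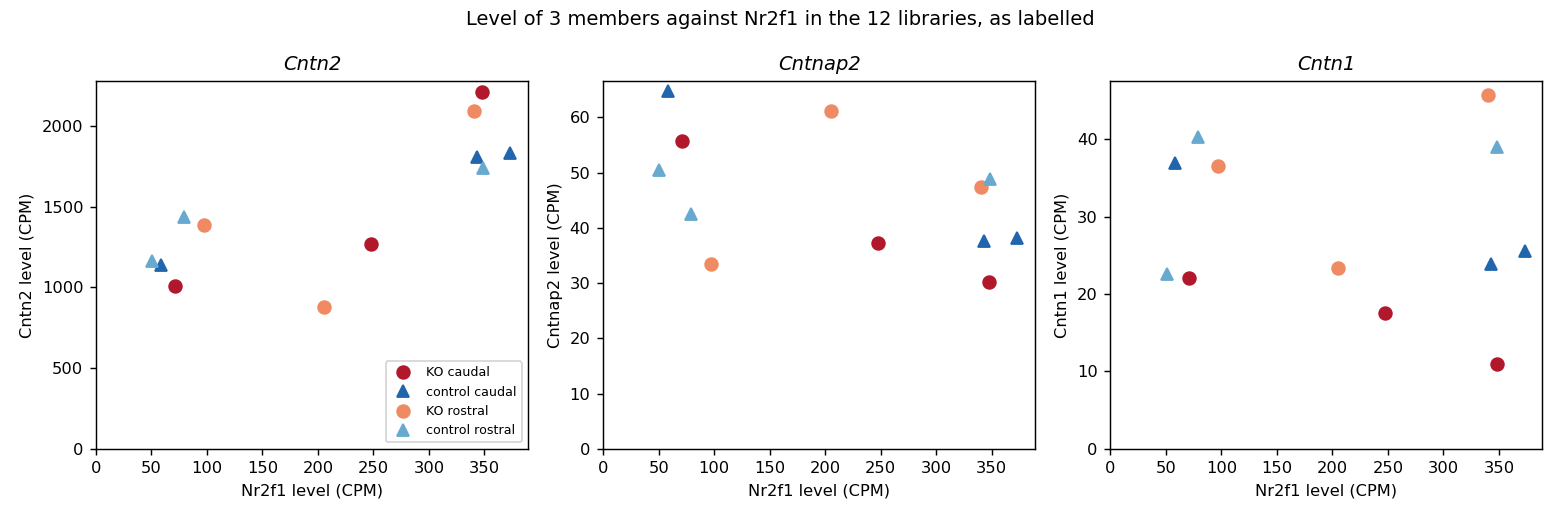
Level of Cntn2, Cntnap2 and Cntn1 (CPM) against that of Nr2f1 (CPM) in the 12 libraries, with genotype and region marked as titled. For Cntn2 the 5 libraries farthest right are also the 5 highest.

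The first question of the design is whether loss of Egfr changes these genes. Over whole embryos, a term used here and below for the summed cortex pieces of a titled embryo, no change of these genes was called. In edgeR's quasi-likelihood test 0 of 10 genes passed an adjusted p of 0.05, where 6 of 18937 genes did (0.0317%). At an unadjusted p under 0.05, 0 of 10 genes and 643 of all genes passed, and DESeq2 called 0 of 10 and 33 of all genes. The median log2 fold change, knockout over control, was -0.07 for the 10 genes and 0.00 for all genes tested. Of the 10 values 8 lay below 0, beside 50.3% of all genes tested. In bulk tissue, fewer cells of a type and less RNA per cell cannot be told apart.

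Cntn2 was the most tightly measured. It averaged 1470 ± 131 CPM in knockout and 1513 ± 100 CPM in control embryos (SD, n = 3 each), a log2 fold change of -0.01 with a 95% interval of -0.20 to 0.17. Its adjusted p was 0.9999 in edgeR's quasi-likelihood test. That precision rests on summing by the titled pairing, which is in doubt. The SE of the log2 fold change of Cntn2 was 0.080 for the sums, but 0.30 in rostral and 0.32 in caudal libraries. Cntnap2 stood at 35.4, 51.4 and 46.4 CPM in knockout embryos 5, 2 and 7, against 40.0, 57.1 and 44.4 CPM in control embryos 1, 3 and 9. The groups overlapped, and the log2 fold change was -0.06 (95% interval -0.49 to 0.36). These intervals leave room for changes of either sign, and a p that misses the threshold does not show equal levels.

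Among the others, Cntn5 had the lowest log2 fold change, -0.42 (95% interval -1.12 to 0.29), with 2.53, 4.23 and 1.88 CPM in knockout embryos 5, 2 and 7, against 3.99, 4.87 and 2.88 CPM in control embryos 1, 3 and 9. Cntn1 came to -0.24 (95% interval -0.91 to 0.44), Cntnap1 to -0.28 and Cntnap4 to -0.20. Cntn6 stood at -0.07, Cntnap5a at -0.02, Cntn4 at 0.01 and Cntn3 at 0.17. The groups overlapped for all 10 genes. The value of Cntn3 rested on knockout rostral library 2, and its log2 fold change was -0.41 without embryo 2. Single embryos also moved the lower values: Cntn5 ran from -0.79 without knockout embryo 2 to -0.20 without knockout embryo 7, Cntn1 from -0.47 without embryo 2 to -0.03 without embryo 7, Cntnap1 from -0.47 without embryo 7 to -0.17 without embryo 2, and Cntnap4 from -0.39 without embryo 2 to -0.05 without control embryo 3. Without embryos 2 and 3 together the log2 fold changes were -0.32 for Cntn1, -0.10 for Cntn2, -0.16 for Cntn3, -0.02 for Cntn4, -0.60 for Cntn5 and -0.46 for Cntn6. They were then -0.24 for Cntnap1, -0.01 for Cntnap2, -0.24 for Cntnap4 and -0.02 for Cntnap5a.

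**Figure D3:**
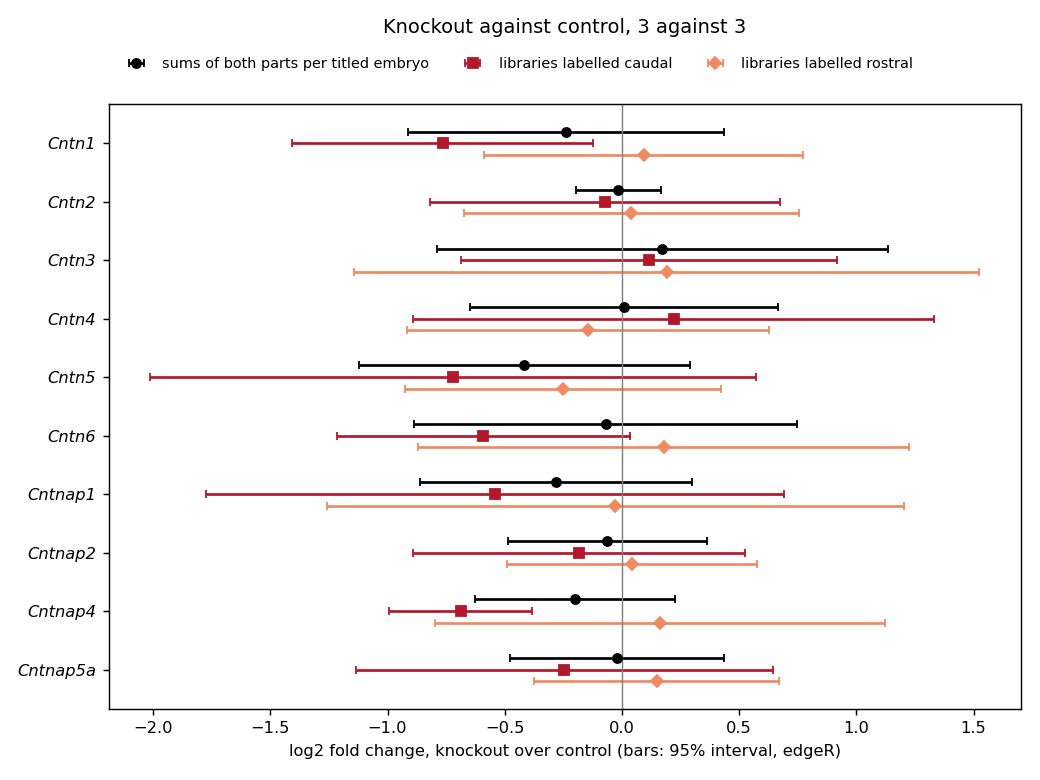
Log2 fold change, knockout over control, of the 10 genes in the summed cortex pieces of each titled embryo, in rostral and in caudal libraries (edgeR, bars are 95% intervals, n = 3 against 3). The intervals of Cntn1 and Cntnap4 in caudal libraries lie below 0, and all others cross it.

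In caudal libraries Cntnap4 and Cntn1 stood lower in knockout than in control, without passing the adjusted threshold. Cntnap4 was at 14.7, 12.2 and 11.9 CPM in knockout caudal libraries 5, 2 and 7, against 20.9, 18.5 and 23.6 CPM in control caudal libraries 1, 3 and 9. The 3 knockout values all lay below the 3 control values. The log2 fold change of Cntnap4 was -0.69 ± 0.13 (SE; 95% interval -0.99 to -0.38), with an unadjusted p of 0.00089 and an adjusted p of 0.408 in edgeR's quasi-likelihood test over all genes. With DESeq2's Wald test the log2 fold change was -0.68 and the adjusted p 0.00953, and with no filter on low counts edgeR gave an adjusted p of 0.0272. Cntnap4 is thus called or not according to the test and the filter. Without embryos 2 and 3 its log2 fold change was -0.72.

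Cntn1 was at 17.54, 22.05 and 10.94 CPM in knockout caudal libraries 5, 2 and 7, against 23.8, 37.0 and 25.6 CPM in control caudal libraries 1, 3 and 9. Again no knockout value reached the lowest control value. The log2 fold change of Cntn1 was -0.77 ± 0.27 (SE; 95% interval -1.41 to -0.12), with an adjusted p of 0.905 in edgeR's quasi-likelihood test, and without embryos 2 and 3 it was -0.77. Cntnap4 and Cntn1 were the 2 of 10 genes with every knockout caudal value below every control caudal value, an arrangement that 6.14% of the 16964 genes tested showed. In all, 0 of 10 genes were called in caudal libraries, against 8 of all genes (0.0472%). At an unadjusted p under 0.05 the counts were 2 of 10 and 871 of all genes, and DESeq2 called 1 of 10 and 71 of all genes. The median log2 fold change of the 10 genes was -0.39, beside 0.00 for all genes tested.

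Cell type markers moved beside these values. Markers of oligodendrocyte precursors summed to 36.0 to 63.4 CPM in knockout caudal and 83.9 to 126 CPM in control caudal libraries over 5 of 5 markers detected, without overlap. Taken singly, Olig1, Olig2 and Sox10 did not overlap, while Pdgfra and Cspg4 did. Those of GABAergic interneurons, of which 11 of 11 were detected, summed to 284 to 851 CPM in knockout caudal libraries. In control caudal libraries they summed to 508 to 1061 CPM, with overlap. Singly, Lhx6, Sst, Npy, Nxph1 and Erbb4 were lower in knockout caudal libraries without overlap. Gad1, Gad2, Dlx1, Dlx2, Dlx5 and Dlx6 overlapped. Pan-neuronal markers, with 6 of 6 detected, summed to 3177 to 3233 CPM in knockout caudal and 3285 to 3490 CPM in control caudal libraries, without overlap. Of these only Syt1 did not overlap when taken singly, at 45.5 to 61.8 CPM against 71.7 to 103 CPM. Snap25, Rbfox3, Stmn2, Map2 and Tubb3 overlapped. Markers of microglia, with 4 of 4 detected, summed to 77.9 to 84.4 CPM in knockout caudal and 90.1 to 112 CPM in control caudal libraries, also without overlap. Singly, Cx3cr1 and Csf1r did not overlap, while P2ry12 and Aif1 did. Among all genes tested, 6.14% had every knockout caudal value below every control caudal value. Those of cortical projection neurons, with 6 of 6 detected, summed to 1861 to 2346 CPM in knockout caudal and 1787 to 2002 CPM in control caudal libraries, with overlap. Their part in the lower Cntnap4 and Cntn1 was not tested. The 3 knockout caudal libraries all held Xist without Y transcripts, while control caudal library 1 held Y transcripts alone.

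Of the remaining genes in caudal libraries, Cntn6 was at 1.32, 2.02 and 1.13 CPM in knockout libraries 5, 2 and 7, against 2.51, 2.29 and 2.00 CPM in control libraries 1, 3 and 9. The groups overlapped by a single pair of values, and its log2 fold change was -0.59 (95% interval -1.21 to 0.03). Cntn5 came to -0.72 (95% interval -2.01 to 0.57) and moved to -0.01 when control library 3, its highest caudal value at 5.35 CPM, was left out, and to -1.27 and -0.42 without knockout libraries 2 and 7. Cntnap2 came to -0.18 (95% interval -0.89 to 0.52) and Cntn2 to -0.07 (95% interval -0.82 to 0.67). For Cntnap2 control caudal library 3 was also the highest, at 64.9 CPM. Without embryos 2 and 3 the values were -0.85 for Cntn6, -0.56 for Cntn5, -0.15 for Cntnap2 and -0.04 for Cntn2.

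In rostral libraries the same genes gave no such arrangement. Cntnap4 was at 12.8, 30.4 and 20.0 CPM in knockout rostral libraries 5, 2 and 7, against 15.2, 30.1 and 12.8 CPM in control rostral libraries 1, 3 and 9. Cntn1 was at 36.6, 45.8 and 23.3 CPM in knockout rostral libraries 5, 2 and 7, against 40.3, 39.1 and 22.5 CPM in control rostral libraries 1, 3 and 9. The groups lay within each other's range, and the log2 fold changes were 0.16 (95% interval -0.80 to 1.12) for Cntnap4 and 0.09 (95% interval -0.59 to 0.77) for Cntn1. Cntn2 came to 0.04 and Cntnap2 to 0.04. Without embryos 2 and 3 the values were 0.27 for Cntnap4, -0.03 for Cntn1, -0.17 for Cntn2 and 0.07 for Cntnap2. None of the 10 was called in edgeR's quasi-likelihood test, nor were any of the 17131 genes tested (0.0%). Egfr itself was thus not called there, with a log2 fold change of -2.27 and an unadjusted p of 0.000146 in that test. A missing call in rostral libraries therefore does not show an unchanged gene. At an unadjusted p under 0.05, 0 of 10 and 180 of all genes passed, and DESeq2 called 0 of 10 and 4 of all genes. The median of the 10 genes was 0.07.

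**Figure D4:**
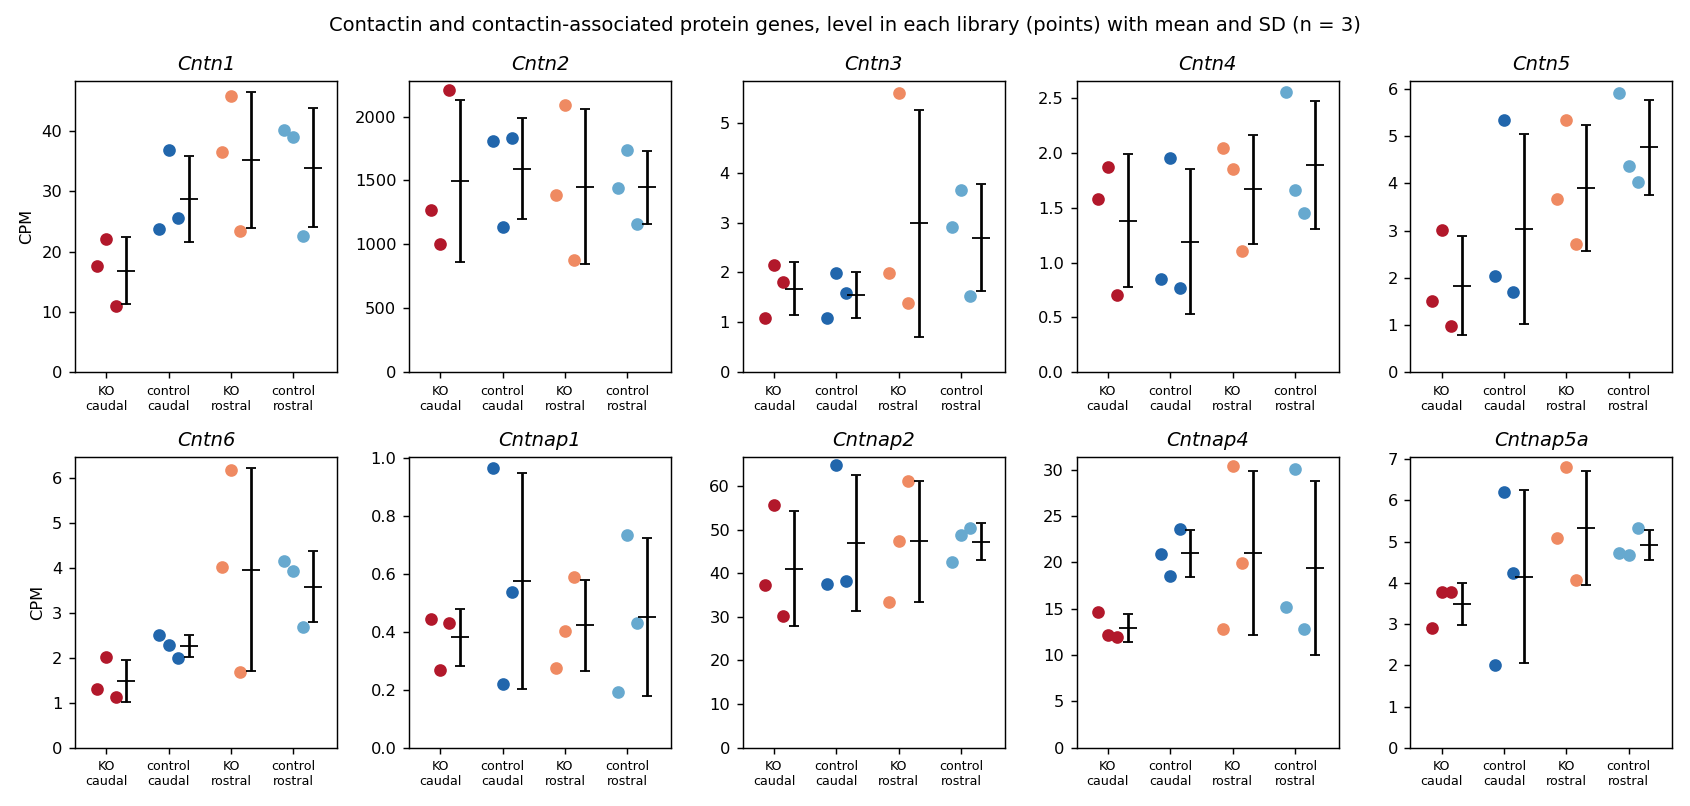
Level of each of the 10 genes (CPM) in the 12 libraries, by titled group; coloured points are libraries, and black marks are the group mean with its SD (n = 3). Knockout caudal values of Cntn1 and Cntnap4 all lie below the control caudal values, and Cntn2 runs from 880 to 2211 CPM within knockout libraries.

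The second question is whether the regions differ. The low contactins Cntn6, Cntn5 and Cntn3 had negative log2 fold changes, caudal over rostral, but 0 of 10 genes and 0 of 17734 genes in all (0.0%) were called in edgeR's quasi-likelihood test. At an unadjusted p under 0.05, 3 of 10 genes (Cntn6, Cntn1 and Cntn5) and 1765 of all genes (9.95%) passed, and DESeq2 called 0 of 10 and 74 of all genes. Cntn6 was at 1.32, 2.02 and 1.13 CPM in caudal and 4.03, 6.19 and 1.68 CPM in rostral libraries of knockout embryos 5, 2 and 7. In control embryos 1, 3 and 9 it was at 2.51, 2.29 and 2.00 CPM in caudal and 4.16, 3.92 and 2.68 CPM in rostral libraries. The caudal value was the lower in 6 of 6 titled embryos, as for 3.28% of all genes tested. In controls every caudal value of Cntn6 lay below every rostral value, which held for 1 of 10 genes and for 5.61% of all genes tested. The log2 fold change, caudal over rostral, was -1.002 ± 0.28 (SE; 95% interval -1.61 to -0.39; adjusted p 0.430 in edgeR), and without embryos 2 and 3 it was -0.89.

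Cntn5 averaged 2.43 ± 1.58 CPM in caudal and 4.34 ± 1.16 CPM in rostral libraries (SD, n = 6 each). Its log2 fold change was -0.84 (95% interval -1.58 to -0.09; adjusted p 0.460 in edgeR), lower in caudal libraries in 5 of 6 titled embryos, and -1.36 without embryos 2 and 3. Cntn1 averaged 22.8 ± 8.70 CPM in caudal and 34.6 ± 9.52 CPM in rostral libraries (SD, n = 6 each). Its log2 fold change was -0.62 (95% interval -1.10 to -0.13; adjusted p 0.448 in edgeR), and it was lower in caudal libraries in 3 of 3 knockout and 2 of 3 control embryos. It was -0.69 without embryos 2 and 3 and -0.34 without the 2 control rostral libraries with both Xist and Y transcripts. For Cntn3 the value was -0.78 (95% interval -1.56 to 0.01), lower in 4 of 6 embryos. It moved to -0.48 without knockout embryo 2, -0.46 without embryos 2 and 3, and -0.39 without those 2 control rostral libraries.

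Cntn1 and Cntnap5a were the 2 of 10 genes with every knockout caudal value below every knockout rostral value, beside 6.67% of all genes tested. Cntnap5a stood at 2.90, 3.78 and 3.79 CPM in knockout caudal libraries 5, 2 and 7 and at 5.09, 6.82 and 4.07 CPM in knockout rostral libraries 5, 2 and 7. Cntn2 (0.13, 95% interval -0.41 to 0.66) and Cntnap2 (-0.08, 95% interval -0.53 to 0.37) were close to level between the regions. For Cntn2 the value was -0.20 without embryo 7 and 0.57 without embryos 2 and 3, and for Cntnap2 it was then -0.38. Leaving those 2 embryos out selects on Nr2f1, with which Cntn2 ran in parallel. The median over the 10 genes was -0.41, beside 0.00 for all genes tested, and it was -0.70 over the 6 contactins and -0.17 over the 4 contactin-associated proteins.

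**Figure D5:**
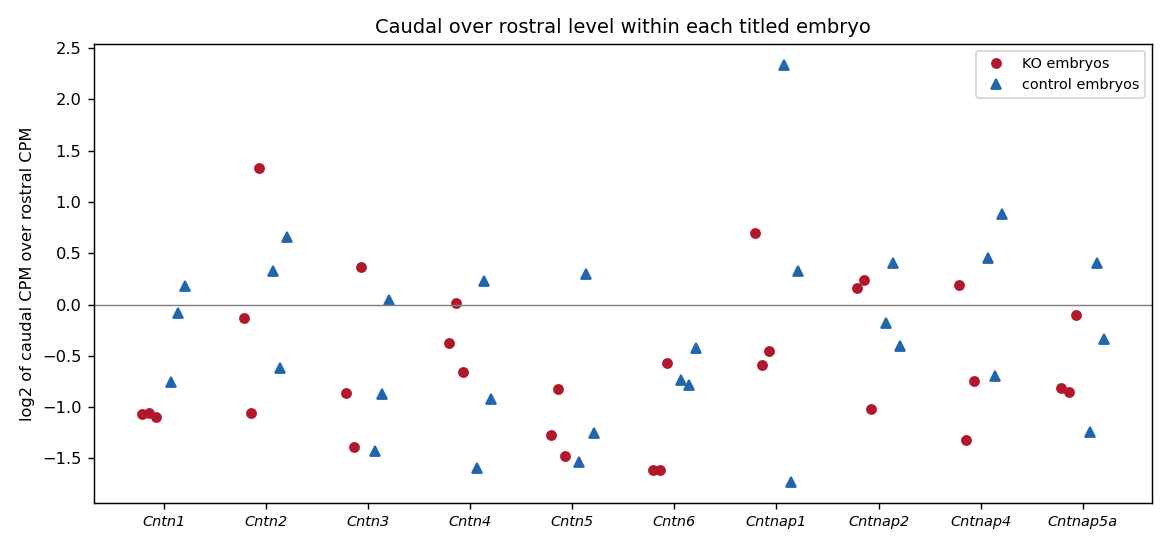
Log2 ratio of the caudal over the rostral level of each gene within each of 6 titled embryos, by genotype. Cntn6 lies below 0 in 6 of 6 embryos, while Cntn2 and Cntnap1 lie on both sides.

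The third question is whether the effect of genotype differs between regions. The interaction (caudal over rostral in knockout less the same in control, log2) was -0.85 for Cntn1 (95% interval -1.83 to 0.12), -0.85 for Cntnap4 (95% interval -1.87 to 0.18) and -0.77 for Cntn6 (95% interval -1.97 to 0.44). Each had an adjusted p of 0.998 in edgeR's quasi-likelihood test, and 0 of 10 and 0 of 17734 genes (0.0%) were called. At an unadjusted p under 0.05, 0 of 10 and 486 of all genes (2.74%) passed, and DESeq2 called 0 of 10 and 0 of all genes. For Cntnap4 the value ran from -1.38 without control embryo 3 to -0.46 without knockout embryo 2 (-0.54 without control embryo 9). Without embryos 2 and 3 it was -0.99 for Cntnap4, -0.74 for Cntn1 and -0.62 for Cntn6, and without the 2 control rostral libraries with both Xist and Y transcripts it was -1.39 for Cntnap4, -1.40 for Cntn1 and -1.14 for Cntn6. The lower Cntnap4 and Cntn1 of caudal libraries are therefore not shown to differ from rostral libraries. These comparisons share libraries with one another and are not separate evidence.

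A pair of libraries stood at the extremes of many of these genes. Knockout rostral 2 held the highest value of 5 of 10 genes (Cntn1, Cntn3, Cntn6, Cntnap4 and Cntnap5a), and of pan-neuronal markers, at 4382 CPM. Knockout caudal 7 held the lowest value of 6 of 10 (Cntn1, Cntn4, Cntn5, Cntn6, Cntnap2 and Cntnap4) and the highest of Cntn2. The same library was lowest in summed markers of interneurons (284 CPM), striatum (12.1 CPM), oligodendrocyte precursors (36.0 CPM) and endothelium (43.9 CPM). It was also lowest in those of astrocytes (42.0 CPM) and choroid plexus (0.0195 CPM). Their part in these extremes was not tested. The share of all genes with an extreme value in these libraries was not counted, so the counts cannot be read as a trait of the 10 genes.

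The rest of the family and the known partners showed no call either. Of the 3 other contactin-associated genes, 0 of 3 passed in any comparison. Cntnap5b averaged 2.87 ± 1.06 CPM in knockout and 4.78 ± 2.63 CPM in control embryos, and Cntnap5c 4.53 ± 1.09 CPM in knockout and 5.65 ± 0.654 CPM in control embryos (SD, n = 3 each). In caudal libraries 2 of 3 passed an unadjusted p under 0.05, beside 871 of all genes (5.13%), Cntnap3 with a log2 fold change of -1.25 and Cntnap5c with -0.54, named here after their values were seen. The median of the 3 was -1.15, beside 0.00 for all genes, and was the value of Cntnap5b. That gene stood at 1.97, 3.86 and 1.21 CPM in knockout caudal libraries 5, 2 and 7, against 2.24, 10.7 and 2.73 CPM in control caudal libraries 1, 3 and 9. Without control library 3 its log2 fold change was -0.06 and the median of the 3 was -0.48.

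Of the 4 L1-family adhesion proteins, which bind contactins on the same or a facing membrane, 0 of 4 were called. Nrcam averaged 123 ± 22.5 CPM in knockout and 140 ± 16.1 CPM in control embryos, and Nfasc 291 ± 21.6 CPM in knockout and 307 ± 3.88 CPM in control embryos (SD, n = 3 each). Of the 8 extracellular partners, among them the receptor phosphatase Ptprz1 and the precursor protein App, 0 of 8 were called. The matrix protein tenascin-C, Tnc, averaged 426 ± 53.8 CPM in knockout and 370.0 ± 45.7 CPM in control embryos, and tenascin-R, Tnr, 66.7 ± 13.6 CPM in knockout and 80.7 ± 13.2 CPM in control embryos (SD, n = 3 each). Of the 13 channels and scaffolds, 0 of 13 were called. The potassium channel gene Kcna1 averaged 4.21 ± 0.472 CPM in knockout and 5.02 ± 1.26 CPM in control embryos, and the ankyrin-G gene Ank3 497 ± 52.9 CPM in knockout and 540 ± 39.8 CPM in control embryos (SD, n = 3 each). Between regions, 11 of these 13 had a log2 fold change below 0, caudal over rostral, with a median of -0.11, and 4 of 13 passed an unadjusted p under 0.05 (Kcnab1, Kcna4, Sptbn4 and Dlg2, named after their values were seen). Of all genes tested, 49.8% had a log2 fold change below 0 and 9.95% passed the unadjusted p. In caudal libraries, knockout over control, Nrcam (-0.31), Tnr (-0.54), Apba1 (-0.40) and Sptbn4 (-0.38) passed an unadjusted p under 0.05 in edgeR, named after their values were seen. That was 1 of 4, 1 of 8 and 2 of 13, beside 5.13% of all genes. Log2 fold changes lay below 0 for 4 of 4, 4 of 8 and 9 of 13, beside 50.4% of all genes.

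Genes whose levels ran most nearly parallel were taken for 9 of the 10 genes as the 3 highest Spearman correlations over the 12 libraries among 10338 genes. These values describe libraries that share embryos, regions and tissue make-up, and carry no test. For Cntn2 they were Dpy19l3 (0.97), Tmem150c (0.96) and the transcription factor gene Nfix (0.96). For Cntnap2 they were Rcan3 (0.98), Gng4 (0.94) and Plxnc1 (0.90). Cntn1 ran with Speg (0.99), Grip2 (0.98) and the GABA-A receptor subunit gene Gabrb2 (0.98), and Cntn5 with Scube3 (0.99), Nin (0.99) and Kitl (0.97). For Cntn6 they were Sgsm2, Lrfn5 and Entpd4 (0.97 each), for Cntnap4 Amer3 (0.94), Glb1 (0.94) and Pomt1 (0.94), for Cntn3 Jak1 (0.95), Map1b (0.94) and Lman2l (0.92), for Cntn4 Sod2 (0.98), Rgs7 (0.95) and Agk (0.93), and for Cntnap5a Mms19 (0.92), Myo16 (0.91) and Ikzf4 (0.90).

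Among themselves, Cntn1, Cntn5 and Cntn6 ran together. Cntn5 and Cntn6 had a Spearman correlation of 0.85 over the 12 libraries, Cntn1 had 0.83 with each of Cntn5 and Cntn6, and Cntn4 had 0.77 with Cntn5. Cntnap5a ran with them too, with 0.77 for Cntn5, 0.67 for Cntn1 and 0.65 for Cntn6. Cntn2 had values from -0.36 (Cntn4) to 0.21 (Cntn1) with the other contactins. Cntnap1 ran against most of them, with -0.76 for Cntn4 and -0.55 for Cntn5, at counts near the lowest measured.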

How the data were processed

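The 12 libraries form 4 groups of 3, and group, region and embryo were taken from the labels. Per the labels' protocols, the libraries were made from captured mRNA and read as 75-bp pairs. The submitters' processing notes name STAR 2.7.8a, featureCounts 2.0.3 and GRCm39. The file headers record GENCODE release 28 for mouse, reverse-strand counting of fragments, and a fractional share for each place or gene a read fits. The authors' deposited values are thus expected counts (estimated counts per gene) with no normalization. In each library 21.6% to 23.9% of detected genes had a fractional value, and of the 10 genes Cntn2 had one in 6, Cntnap2 in 5, Cntn1 in 1 and Cntnap1 in 6 of 12 libraries. Reads shared between overlapping genes are split, which can change low levels.

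Counts were rounded and tested with edgeR 4.0.16 in R 4.3.3 (TMM scaling, filterByExpr, robust quasi-likelihood fit, Benjamini-Hochberg adjustment over all genes tested, threshold 0.05). Levels are CPM of the deposited counts, and CPM per kb of exonic length where genes are compared. Genotypes were compared in the summed pieces of each titled embryo and in each region (3 against 3); regions and the interaction were compared in 1 fit of 12 libraries with 4 group means. The SE is the size of a log2 fold change over the square root of F. The procedure was tested on simulated data. Alternatives were scaling by the size factors of DESeq2 1.42.0, its Wald test, testing without the filter, leaving out each embryo in turn, leaving out 2 control rostral libraries with Xist and Y transcripts, the number before the embryo number in the titles as a covariate, all 12 libraries in 1 fit, and the embryo as a replicate block. Leaving out embryos 2 and 3 was added after the data were seen.

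The titled pairing was checked over 1000 genes by correlating, between the 2 libraries of an embryo, the deviations from the means of their groups. In knockout embryos 5, 2 and 7 the correlations came to -0.46, -0.65 and -0.57. In control embryos 1, 3 and 9 they came to -0.23, -0.71 and -0.65. None of these exceeded 0.1 (0 of 6), and the embryo is not used as a block in the results given. Exchanged regions in some embryos of a group can also make such correlations negative, so the check cannot settle the pairing. Replicates of a group differed by at least 18.5 in chi-square per gene, so none was a copy of another.

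The 10 genes, the partner lists and the marker lists were chosen with earlier results of these data known. Named genes are the 10, Egfr, Nr2f1, the 2 members of each partner list with the smallest p over whole embryos where none is called, and, for each of the 10 with a mean of at least 1 CPM, the 3 genes most like it among those with a mean of at least 5 CPM, leaving out predicted genes, pseudogenes and genes of X and Y.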

Additional observations from a re-analysis of the deposited data

Results flagged for a closer look

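Cntn3 in knockout rostral library 2, at 5.59 CPM, stood far from the other 5 knockout libraries. Its gap to the nearest of them was 0.767 of the whole range, above the critical value of 0.625 for 6 samples. The 6 knockout and the 6 control libraries were looked at in this way for each of the 10 genes, 20 groups in all, of which chance flags about 1 in 20. The same library was also highest for Cntn1, Cntn6, Cntnap4 and Cntnap5a.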

How the results depend on the processing

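Of 362 alternative values of the log2 fold changes given for the 10 genes, 319 kept their sign and their side of the threshold, 2 passed the threshold (Cntnap4 in caudal libraries) and 41 changed sign, in 16 of 29 results whose log2 fold change was at most 0.42 in size; the cause of the sign changes was not tested. The values of Cntn1, Cntn5, Cntn6 and Cntnap4 in caudal libraries, of Cntn1, Cntn3, Cntn5 and Cntn6 between regions, and the interactions kept their sign under every alternative run. In no alternative was another of the 10 genes called. With DESeq2's Wald test 1 of 10 genes was called in caudal libraries, and over all genes 33 were called in whole embryos, 4 in rostral libraries, 71 in caudal libraries and 74 between regions. With no filter on low counts 1 of 10 was called in caudal libraries, and over all genes 110 in whole embryos, 2 in rostral libraries, 57 in caudal libraries and 2 between regions. With all 12 libraries in 1 fit, 2 genes were called in rostral and 3 in caudal libraries. Without embryos 2 and 3, 19 genes were called in whole embryos and 16 between regions, whole-embryo log2 fold changes became -0.16 for Cntn3 and -0.016 for Cntn4, and the rostral log2 fold changes became -0.030 for Cntn1 and -0.17 for Cntn2. Without the 2 control rostral libraries with both Xist and Y transcripts, whole-embryo values became 0.12 for Cntn1, 0.0040 for Cntn5, 0.22 for Cntn6 and 0.0050 for Cntnap2, and the rostral value of Cntnap2 became -0.088. With the number in the titles as a covariate, Cntnap5a became 0.0016 in whole embryos.

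Leaving out each embryo in turn gave 3 to 21 calls over all genes in whole embryos (3 without embryo 5, 10 without embryo 3 and 21 without embryo 2), 2 to 8 in caudal libraries (2 without embryo 5, 4 without embryo 7 and 5 without embryo 9), and 0 to 6 both between regions and for the interaction (1 without control embryo 1 and 6 without control embryo 9). The whole-embryo log2 fold changes then ran from -0.058 to 0.057 for Cntn2, from -0.41 to 0.42 for Cntn3, from -0.17 to 0.26 for Cntn4, from -0.50 to 0.23 for Cntn6, from -0.17 to 0.10 for Cntnap2 and from -0.20 to 0.13 for Cntnap5a. Rostral values ran from -0.13 to 0.31 for Cntn1, from -0.31 to 0.29 for Cntn2, from -0.20 to 0.25 for Cntnap2 and from -0.18 to 0.61 for Cntnap4. Caudal values ran from -0.48 to 0.15 for Cntn2 and from -0.46 to 0.14 for Cntnap2, and values between regions from -0.20 to 0.41 for Cntn2 and from -0.24 to 0.13 for Cntnap2. Egfr stayed between 16.4% and 23.2% of control. With the titled embryo as a replicate block, 0 genes were called between regions and 0 for the interaction, as without it.

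Groups of 3 libraries leave wide intervals, and genes near 1 CPM, such as Cntnap1 and Cntn4, are the least certain. The titled regions of embryos 2 and 3 and the titled pairing are in doubt.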
